A study of Mus musculus with 9 samples.

Results

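The glycine N-acyltransferase family of the mouse was followed across 9 liver arrays through 3 genes, Glyat, Keg1 and Gm4952. The members were found by gene name, every non-control spot named for one of them was taken, and the family itself was chosen with earlier results of these arrays known. They were 3 of 37074 gene names and held 5 of 59305 non-control spots, 3 for Glyat and 1 each for Keg1 and Gm4952. Because the family was selected on values of the same contrasts, the levels and differences of its members are given as a description, with no test.

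Each array carried liver RNA of male mice. The labels give 12 months as the age, while the study describes that time as counted from the injection of young adults. In the study's methods these are C57BL/6N mice injected through the tail vein with an adeno-associated virus (AAV) directed to hepatocytes, which carried either no insert (AAV-V) or the mouse Golgi protein GP73 (AAV-GP73). The AAV-V and AAV-GP73 groups had a normal diet, and the AAV-V HFD group received the empty vector with a high-fat diet, so that every group carried a virus and none was untreated. There were 3 samples per group. Whether each sample was 1 mouse or a pool was not stated, and the p-values below measure only the spread between these samples. Both groups on the normal diet shared 1 slide and the high-fat diet group had a slide of its own, so slide and diet cannot be told apart in any comparison with AAV-V HFD. The gene for GP73, Golm1, had 1 probe (mm9, chromosome 13, 59736466 to 59736525), which none of the arrays read well above background by the flag of the scanner software, with mean scaled log2 signals of 1.23 (AAV-V), 0.50 (AAV-GP73) and 0.86 for the high-fat diet. Whether the vector carries the stretch this probe reads is not given in the sources used here, so the arrays offer no check of the AAV-GP73 label by its own transcript.

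The arrays of the groups differed widely in brightness. A probe or gene is called seen where its spot was flagged well above background, and a scaled signal is the log2 intensity after the arrays were shifted to a common 75th percentile. Between 10.2% and 10.7% of the non-control spots were well above background on AAV-V arrays, against 16.0% to 18.4% on AAV-GP73 arrays and 13.8% to 16.7% on AAV-V HFD arrays. The median intensity of the 4864 spots seen on all 9 arrays ran from 36.4 to 41.8 on AAV-V arrays, from 138 to 169 on AAV-GP73 arrays and from 95.4 to 202 on AAV-V HFD arrays, with AAV-V HFD replicate 3 the dimmest of its group. After this scaling, the median gene tested still lay above AAV-V, by 1.49 on the log2 scale with AAV-GP73 and by 1.24 under the high-fat diet, while the 45236 probes never above background fell by 0.74 and 0.56. Every rise over AAV-V below has to be read against these shifts, and the part of array brightness in them was not tested. All 8 hepatocyte markers were well above background on every AAV-V and AAV-GP73 array and 7 of them on every AAV-V HFD array. Their summed scaled signal ran from 10800 to 15700 on AAV-V arrays, from 20400 to 24400 on AAV-GP73 arrays and from 13400 to 19000 on AAV-V HFD arrays. In whole liver, more cells of a type and more RNA per cell cannot be told apart.

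Glycine N-acyltransferases sit in the mitochondrial matrix and join an acyl group, carried by coenzyme A, to the amino group of glycine. Benzoate leaves the body this way as hippurate, and the short and branched acyl groups that accumulate when their breakdown stalls leave as acylglycines. The reaction frees coenzyme A and consumes glycine, and liver and kidney are its main sites. Glyat is the best studied enzyme of the group. Keg1 was named as a kidney expressed gene and belongs to the same family by its protein sequence. Gm4952 is a family member known mainly by its sequence. The 3 genes form a cluster on mouse chromosome 19, where the outermost of the probes lay 92.0 kb apart, with 22.9 kb between the Gm4952 probe and the first Glyat probe and 69.2 kb from there to the Keg1 probe.

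The probes are shown because the 3 Glyat probes gave different answers and because related genes could share sequence. Each is 60 bases long, and coordinates are those of the scanner output, on mm9. Glyat probe 1 is given whole, since its genomic footprint of 860 bases is longer than the probe and so spans a gap between exons. Of the other 4 probes, which lie in an unbroken stretch of the genome, the first 30 bases are given. Whether those lie in coding sequence or in an untranslated region was not determined, as no annotation of this build was used, and the files do not give the strand.
Gm4952 probe, chr19:12702020-12702079, first 30 bases: gatcgcttcagtggaagtcctttgatctct
Glyat probe 1, chr19:12724890-12725749, whole: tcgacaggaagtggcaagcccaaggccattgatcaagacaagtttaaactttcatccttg
Glyat probe 2, chr19:12727383-12727442, first 30 bases: gacactgcctggcattatgaagaacccaca
Glyat probe 3, chr19:12728130-12728189, first 30 bases: aatgaggagaaataaactcactgtcagcct
Keg1 probe, chr19:12794066-12794125, first 30 bases: ctggagaagtagcccgtcatctaaaaagat
The longest run of bases shared between the probes of different members was 6, and no probe of any other gene on the array shared a run of 15 or more bases with any of the 5. Probes were compared with probes alone, in the orientation given, and no transcript sequence was searched. Whether a probe also reads the transcript of another member was therefore not tested. The annotated targets also differ, as Glyat probe 1 is listed for the RefSeq transcript of the gene, probe 2 for an Ensembl transcript and probe 3 for a cDNA clone.

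Gm4952 was unseen in AAV-V livers, clearly seen in AAV-V HFD livers and highest in AAV-GP73 livers. Its scaled log2 signal was 0.95, 0.99 and 1.19 on the 3 AAV-V arrays, none of them well above background. It was 6.32, 6.47 and 6.72 on the AAV-GP73 arrays and 4.60, 4.55 and 3.66 on the AAV-V HFD arrays, all 6 well above background. The 3 groups did not overlap, and the lowest AAV-GP73 array lay 1.71 above the highest AAV-V HFD array. Before scaling, the intensities on the AAV-GP73 arrays were 88.7, 103.4 and 132.9, and those on the AAV-V HFD arrays were 29.2, 27.6 and 12.8. The AAV-V intensities of 1.43 to 1.77 were all values that the scanner software puts in place of a signal it cannot tell from background, so that AAV-V gives only an upper limit.

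The rise of Gm4952 over AAV-V was therefore computed as a lower bound. Each AAV-V array was set to the lowest signal that any probe showed well above background on it, or to the probe's own signal where that was higher. On this footing Gm4952 was at least 9.41-fold higher in AAV-GP73 than in AAV-V (log2 3.23) and at least 2.00-fold higher in AAV-V HFD (log2 1.00). Among the 2074 genes unseen on all AAV-V arrays and seen on all AAV-GP73 arrays, the median bound was 0.66 on the log2 scale, and Gm4952 had the 19th highest. For AAV-V HFD, the median bound of the 1317 genes unseen in AAV-V and seen on all AAV-V HFD arrays was 0.83. Over all probes, 4.4% changed from no AAV-V array to all 3 AAV-GP73 arrays well above background, and 2.75% did so for AAV-V HFD.

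The AAV-GP73 and AAV-V HFD levels were both measured, and AAV-GP73 was 4.71-fold higher (log2 difference 2.23, SE 0.33, n = 3 per group). The median gene differed by 0.11 on the log2 scale between these groups. Ordered by this difference, Gm4952 was 10th of the 4394 genes seen on all 6 arrays. Called genes were few in this comparison: 1.65% of the 5763 genes tested were called higher in AAV-GP73 and 0.434% lower, with called meaning an adjusted p under 0.05 and a change of 2-fold or more. Without AAV-V HFD replicate 3, where Gm4952 was lowest of its group, the log2 difference was 1.93, and leaving out each array in turn gave values up to 2.40.

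**Figure D1:**
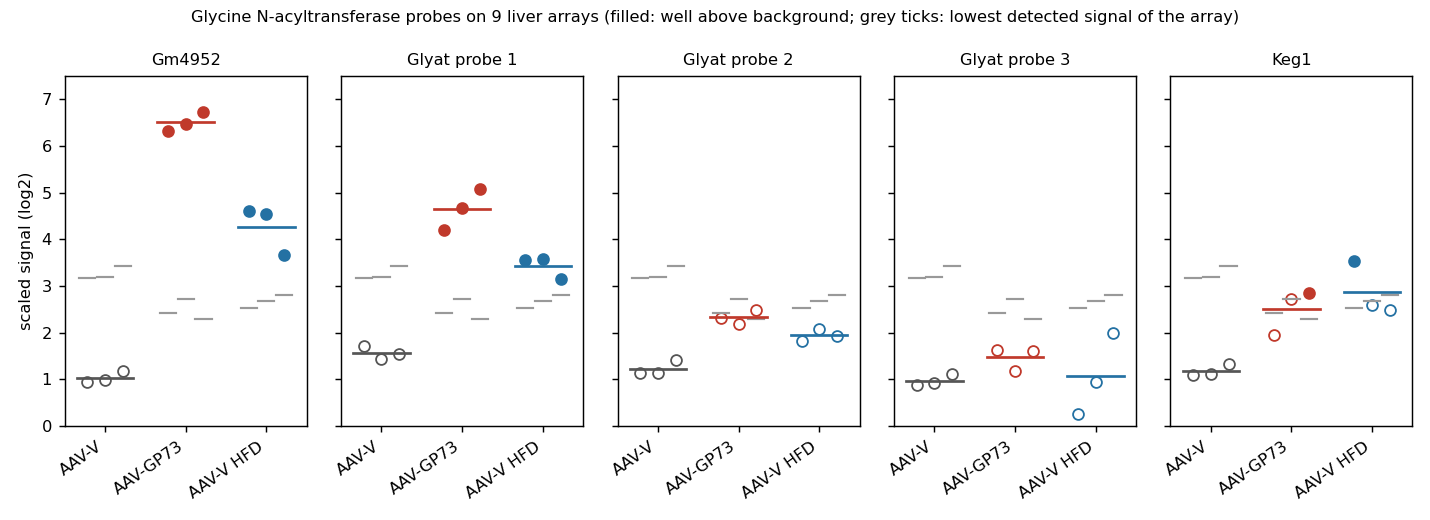
Scaled log2 signal of each of the 5 probes on every array (points, 3 per group, replicates 1 to 3 from left to right), with the group mean as a coloured line, filled points where the spot was well above background and a grey tick at the lowest detected signal of each array. Gm4952 and Glyat probe 1 are filled on all AAV-GP73 and AAV-V HFD arrays and open on all AAV-V arrays, while Glyat probes 2 and 3 are open throughout.

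Glyat followed the same order of groups over a smaller range, and it did so on 1 of its 3 probes. Probe 1, the brightest, gave 1.72, 1.43 and 1.55 on the AAV-V arrays, none well above background. It gave 4.20, 4.67 and 5.07 on the AAV-GP73 arrays and 3.55, 3.57 and 3.14 on the AAV-V HFD arrays, all well above background. The 3 groups did not overlap, and the gap between the lowest AAV-GP73 and the highest AAV-V HFD array was 0.63. The unscaled intensities were low throughout, at 20.5, 29.7 and 42.2 in AAV-GP73 and 14.1, 14.0 and 8.98 in AAV-V HFD, where the lowest detected spots of those arrays had intensities of 5.95 to 7.63 and 6.94 to 7.57.

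Glyat on probe 1 was at least 2.60-fold higher in AAV-GP73 than in AAV-V (log2 1.38), which was the 444th highest bound of the same 2074 genes. In AAV-V HFD it was at least 1.11-fold higher (log2 0.15), below the median bound of 0.83 for the 1317 genes that were unseen in AAV-V and seen on all AAV-V HFD arrays. Against AAV-V HFD, AAV-GP73 was 2.34-fold higher (log2 difference 1.23, SE 0.29, n = 3 per group), which placed Glyat 110th of 4394 genes. In Gm4952 and Glyat alike, AAV-V HFD replicate 3 had the lowest signal of its group.

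Glyat probes 2 and 3 were not well above background on any array, so that their values set no fold. Probe 2 read 1.14, 1.14 and 1.41 (AAV-V), 2.31, 2.20 and 2.48 (AAV-GP73), and 1.82, 2.08 and 1.94 (AAV-V HFD). Its groups did not overlap and stood in the order seen on probe 1, at signals where order has no measured size. Probe 3 read 0.87, 0.93 and 1.12 (AAV-V), 1.64, 1.19 and 1.61 (AAV-GP73), and 0.26, 0.95 and 1.99 (AAV-V HFD). Here AAV-GP73 lay above AAV-V by 0.06 between the nearest arrays, while AAV-V HFD spread across both groups. The level of Glyat in these livers thus rests on probe 1.

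Keg1 stood at the edge of detection. Its scaled log2 signal was 1.09, 1.11 and 1.33 (AAV-V), 1.96, 2.72 and 2.86 (AAV-GP73), and 3.53, 2.60 and 2.49 (AAV-V HFD). It was well above background on only 2 of the 9 arrays, AAV-GP73 replicate 3 and AAV-V HFD replicate 1. All AAV-GP73 and AAV-V HFD arrays were higher than all AAV-V arrays, but the group means of 2.51 ± 0.48 and 2.87 ± 0.57 (SD, n = 3) lay below the detection limit of the AAV-V arrays (mean 3.27), so no bound over AAV-V could be set. The AAV-GP73 and AAV-V HFD arrays overlapped, with a log2 difference of -0.36 (SE 0.43). In this respect Keg1 did not share the order of Gm4952 and Glyat, though a difference of this size could not be resolved at these signals.

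Across the 5 probes, the AAV-GP73 arrays lay above the AAV-V arrays without overlap on 5, where 10.7% of all 56605 probes did. The AAV-V HFD arrays did so on 4, all but Glyat probe 3, where 8.32% of all probes did. The AAV-GP73 arrays lay above the AAV-V HFD arrays on 3, Gm4952 and Glyat probes 1 and 2, where 3.18% of all probes did. As these are the contrasts on which the family was chosen, nothing is read from the shares.

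The bounds over AAV-V moved with the way the arrays were put on one scale, and the difference between the AAV-GP73 and AAV-V HFD groups moved less. For Gm4952 the bound in AAV-GP73 lay between 1.38 and 4.01 on the log2 scale over 5 other scalings, and in AAV-V HFD between 0.26 and 1.47, with no bound when the 75th percentile was taken over detected spots alone. The difference of AAV-GP73 from AAV-V HFD was 2.06 to 2.55 in 4 of these and 0.91 with normexp background correction and an offset of 50, and the arrays of the groups did not overlap in any of the 5. For Glyat the bound in AAV-GP73 ranged from 0.28 to 2.16. In AAV-V HFD it was absent in 3 of the 5. The Glyat difference between AAV-GP73 and AAV-V HFD was 1.04 to 1.54 in 4 scalings and 0.28, with overlapping arrays, with normexp. The Keg1 arrays of AAV-V overlapped with those of the other groups when the percentile was taken over detected spots.

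**Figure D2:**
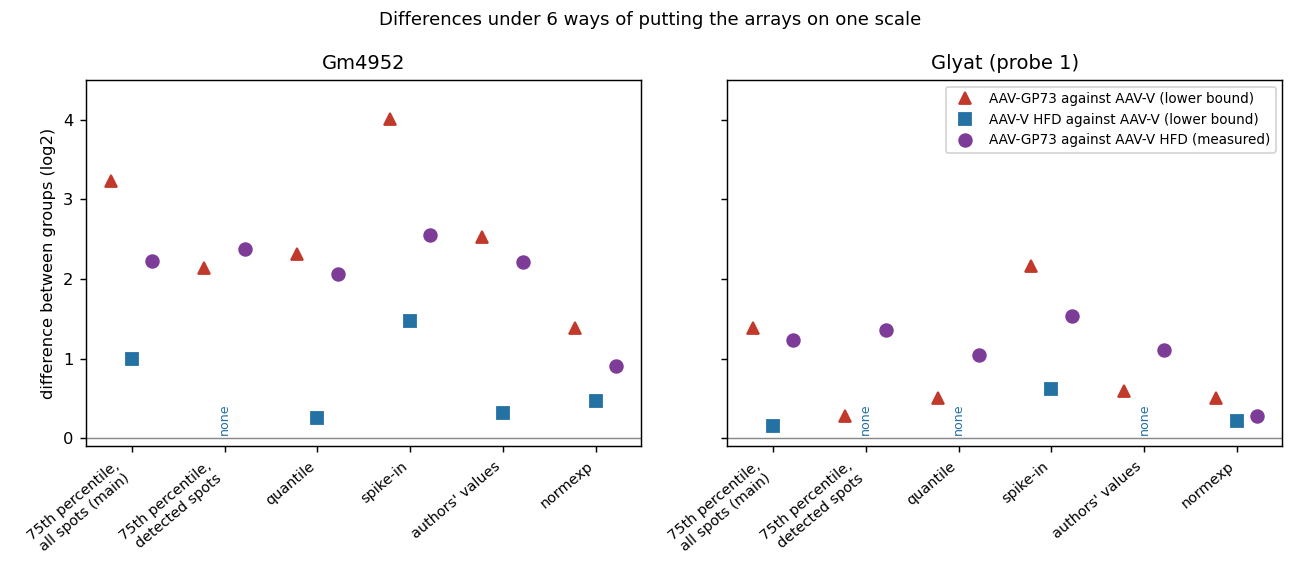
Log2 difference between groups for Gm4952 (left) and Glyat probe 1 (right) under the main scaling and 5 others along the horizontal axis, with triangles and squares for lower bounds over AAV-V, circles for the measured difference of AAV-GP73 from AAV-V HFD, and "none" where no bound exists. The circles stay between 2.06 and 2.55 for Gm4952 and between 1.04 and 1.54 for Glyat in all but the normexp setting, while the triangles run from 1.38 to 4.01 and from 0.28 to 2.16.

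Glycine conjugation needs an activated acyl group and glycine, so 35 genes around the reaction were described beside the family. Of these, 20 had a probe that every array of some group read well above background, and these were tested. All 20 were called higher in AAV-GP73 than in AAV-V, where 62.3% of all genes tested were, and none lower, where 8.24% were. In AAV-V HFD, 16 of the 20 were called higher than in AAV-V, against 54.7% of all genes, and none lower, against 3.87%. All of the 20 but Acsm1, Agxt and Gnmt entered the test only through a brighter group. They include the 10 genes unseen on every AAV-V array. This entry favoured their calls over AAV-V in advance, so those calls are a description. The median log2 fold change of the 20 was 2.76 with AAV-GP73 and 2.06 under the high-fat diet, beside 1.49 and 1.24 over all genes tested. With genes unseen in AAV-V set to their lower bound, or to 0 where none exists, the medians were 1.71 and 1.37, beside 0.71 and 0.47 over all genes. Only Acsm1, Agxt and Gnmt were seen on all 9 arrays. All 3 were called higher in AAV-GP73, and 2 of them, Agxt and Gnmt, in AAV-V HFD, where of all 2429 genes seen on 9 arrays 42.5% and 38.9% were called higher. Both comparisons share the AAV-V arrays. With the percentile taken over detected spots, 13 and 6 of the 20 were called higher, beside 25.1% and 13% of all genes, and with normexp 5 and 3, beside 12.2% and 12.7%.

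Among the enzymes nearest to the family in their reaction, 2 of 4 were tested. Baat, which joins bile acids to taurine or glycine, and Acnat2, a relative that acts on fatty acids, were seen on all AAV-GP73 arrays and on no array of the other groups. They entered the test only through AAV-GP73, so their calls over AAV-V carry no weight. Their mean scaled log2 signals in AAV-GP73, 2.99 and 3.25, lay below the detection limit of the AAV-V arrays, so neither has a fold or a bound. Glyatl3, the one further relative with glycine N-acyltransferase in its name, was unseen throughout and was not tested, and Acnat1 was not tested either.

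The medium-chain acyl-CoA ligases activate benzoate and medium-chain fatty acids before glycine is attached. Of the 5, Acsm1 and Acsm3 were tested. Acsm1 was seen on every array and was 2.34-fold higher in AAV-GP73 than in AAV-V (log2 fold change 1.23, SE 0.31, adjusted p = 0.00312). In AAV-V HFD its log2 fold change was 0.92 (SE 0.31, adjusted p = 0.0211), which missed the fold threshold. The Acsm1 call in AAV-GP73 was lost with the detected-spot percentile, quantile normalization, the authors' log2 values and normexp. The median log2 fold changes of the 2429 genes seen on all 9 arrays, as Acsm1 was, were 0.70 and 0.51. Acsm3, unseen in AAV-V, was at least 2.19-fold higher with AAV-GP73 and at least 2.09-fold higher under the high-fat diet.

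Of 10 genes for the supply of glycine, 5 were tested and all 5 were called higher in both groups than in AAV-V. Agxt, which transfers an amino group to glyoxylate and so makes glycine in peroxisomes, was seen on every array. It was 10.8-fold higher in AAV-GP73 (log2 fold change 3.43, SE 0.40, limma adjusted p = 1.48e-05) and 5.93-fold higher in AAV-V HFD (2.57, SE 0.40, adjusted p = 0.000152). The enzymes of the path from dimethylglycine through sarcosine to glycine were also called. Pipox, which oxidises sarcosine among other substrates, was seen on 2 of 3 AAV-V arrays and rose 7.32-fold in AAV-GP73 and 4.15-fold in AAV-V HFD. Dmgdh, which makes sarcosine from dimethylglycine, and Sardh, which makes glycine from sarcosine, were each seen on 1 of 3 AAV-V arrays, and their folds are lower bounds with the unseen arrays at their detection limit. Dmgdh was at least 4.11-fold and 2.86-fold higher, and Sardh at least 2.50-fold and 1.99-fold higher, in the same order of groups. The serine branch was largely out of reach, as Shmt1, Phgdh, Psat1 and Psph were not tested. Its tested gene, Shmt2, was unseen in AAV-V. On the log2 scale it was at least 0.45 higher in AAV-GP73 and 0.14 higher in AAV-V HFD.

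Of 8 genes that share glycine as substrate or product in its breakdown and use, 5 were tested, all but Gnmt only through a brighter group. All 5 were called higher in both groups than in AAV-V, where 62.3% (AAV-GP73) and 54.7% (AAV-V HFD) of all genes tested were. Of these calls, that of Gldc in AAV-V HFD had an adjusted p of 0.0475 by limma, rested on a gene seen on no AAV-V and 1 AAV-V HFD array, had no bound, and held in only 6 of 22 alternatives. It was lost on leaving out any single array other than AAV-V replicate 3 and AAV-V HFD replicate 2. Gnmt, which methylates glycine to sarcosine, was seen on every array. It was 9.69-fold higher in AAV-GP73 (log2 fold change 3.28, SE 0.51, adjusted p = 9.36e-05) and 3.13-fold higher in AAV-V HFD (1.65, SE 0.51, adjusted p = 0.0118). Its scaled log2 signal on the AAV-V HFD arrays was 5.45, 5.54 and 7.63. The Gnmt call in AAV-V HFD was lost without AAV-V HFD replicate 3. It was also lost with the detected-spot percentile, quantile normalization, the authors' log2 values, normexp and the methods' t-test, adjusted or not. Alas1, which uses glycine in the first step of heme synthesis, rose 12.7-fold and 18.2-fold, the AAV-V level being seen on 2 of 3 arrays. Gcsh, the carrier protein of the glycine cleavage system, was seen on 1 of 3 AAV-V arrays and was at least 3.37-fold and 4.35-fold higher. Gcat, which yields glycine in the mitochondrial breakdown of threonine and so does not consume it, was unseen in AAV-V and at least 2.32-fold and 1.69-fold higher.

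Gldc, the decarboxylase of the glycine cleavage system, was the 1 gene of the 20 called between AAV-GP73 and AAV-V HFD, and is named because of this call. It entered the test only through AAV-GP73, the group where it was high, so the call is given as a description. Its scaled log2 signal was 4.35, 4.87 and 4.82 in AAV-GP73, all well above background, and 2.26, 1.75 and 3.32 in AAV-V HFD, where it was seen on replicate 3 alone. The fitted log2 difference was 2.24 (SE 0.43, limma adjusted p = 0.0183), and the arrays did not overlap. With the 2 unseen AAV-V HFD arrays at their detection limit, Gldc was at least 3.57-fold higher in AAV-GP73 (log2 1.84). The call was lost without AAV-GP73 replicate 2 (log2 difference 2.14, adjusted p = 0.0819), without AAV-GP73 replicate 3 (2.17, adjusted p = 0.105) or without AAV-V HFD replicate 1 (2.15, adjusted p = 0.0522), while the difference stayed of similar size. Over all 20 genes the median log2 difference between these groups was 0.49, beside 0.11 over all genes tested.

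The last list held enzymes that handle the acyl-CoAs which become acylglycines, namely acyl-CoA dehydrogenases and the branched-chain ketoacid dehydrogenase. Of the 8, 6 were tested. All 6 were called higher in AAV-GP73 than in AAV-V and 5 in AAV-V HFD. The exception was Acadsb, which was unseen on all AAV-V HFD arrays. Of all genes tested, 62.3% and 54.7% were called higher in these comparisons. The 6 entered the test only through groups other than AAV-V, so their calls and p-values are a description. Acadsb entered through AAV-GP73 alone. Its mean there, 2.90, lay below the detection limit of the AAV-V arrays (mean 3.27), so it has no bound and its call carries no weight. Acadm, the medium-chain dehydrogenase, was seen on 2 of 3 AAV-V arrays. With the unseen array at its detection limit, Acadm was at least 14.2-fold higher in AAV-GP73 and 8.30-fold higher in AAV-V HFD. Its fitted log2 fold changes were 3.93 (SE 0.38, limma adjusted p = 4.69e-06) and 3.16 (SE 0.38, adjusted p = 3.21e-05). Both E1 subunits of the branched-chain enzyme were called. Bckdhb, seen on 1 of 3 AAV-V arrays, was at least 4.59-fold and 3.14-fold higher, and Bckdha, unseen in AAV-V, was at least 4.77-fold and 3.66-fold higher. Acads, the short-chain dehydrogenase, was also unseen in AAV-V and was at least 2.58-fold and 2.14-fold higher.

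**Figure D3:**
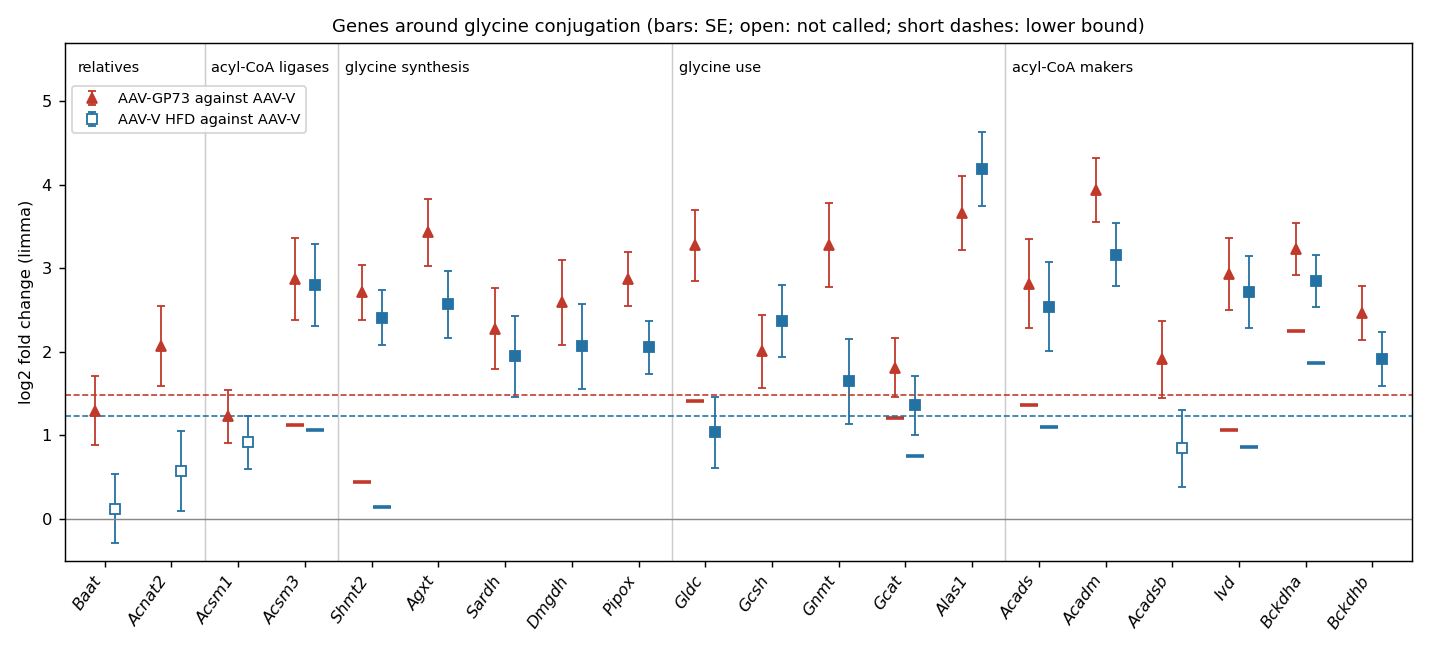
Limma log2 fold changes over AAV-V (points, with SE bars) of the 20 tested genes around glycine conjugation, grouped by role, with filled symbols for called genes, short thick dashes for the lower bound of genes unseen in AAV-V and dashed lines at the all-gene medians of 1.49 and 1.24. Points of genes unseen in AAV-V are fitted values and no measured fold. All 20 triangles (AAV-GP73) are filled, and the open squares (AAV-V HFD) are Baat, Acnat2, Acsm1 and Acadsb.

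The profiles of Gm4952 and Glyat over the 9 arrays were compared with those of all genes tested, by the root-mean-square distance between log2 signals after each gene was centred on its own mean. The 5 genes nearest to Gm4952 were Fpgs (0.40), which adds glutamate to folates, Ephx2 (0.41), the soluble epoxide hydrolase, Crot (0.42), the peroxisomal carnitine octanoyltransferase, Rnf125 (0.51), a ubiquitin ligase, and Lhpp (0.54), a phosphatase. Of these, Ephx2 alone was seen on all AAV-V arrays. Its mean scaled log2 signal was 4.89 (AAV-V), 10.02 (AAV-GP73) and 8.53 under the high-fat diet, so this profile has a measured level in each group, unlike that of Gm4952. The other 4 were unseen on every AAV-V array.

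The 4 genes nearest to Glyat were Sbds (0.15), a ribosome maturation factor, Trim2 (0.21), a ubiquitin ligase, Pnpla2 (0.24), the adipose triglyceride lipase, and Rab9 (0.25), a small GTPase of the late endosome. All 4 were unseen on the AAV-V arrays. Gm4952 and Glyat lay 1.00 apart, which made Glyat the 171st nearest gene to Gm4952 and Gm4952 the 3575th nearest to Glyat. The order of the groups was the same in both genes, and Gm4952 spanned the wider range. The part of this range in the distance was not tested. All these profiles share arrays and their brightness, and the distances are a description.

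**Figure D4:**
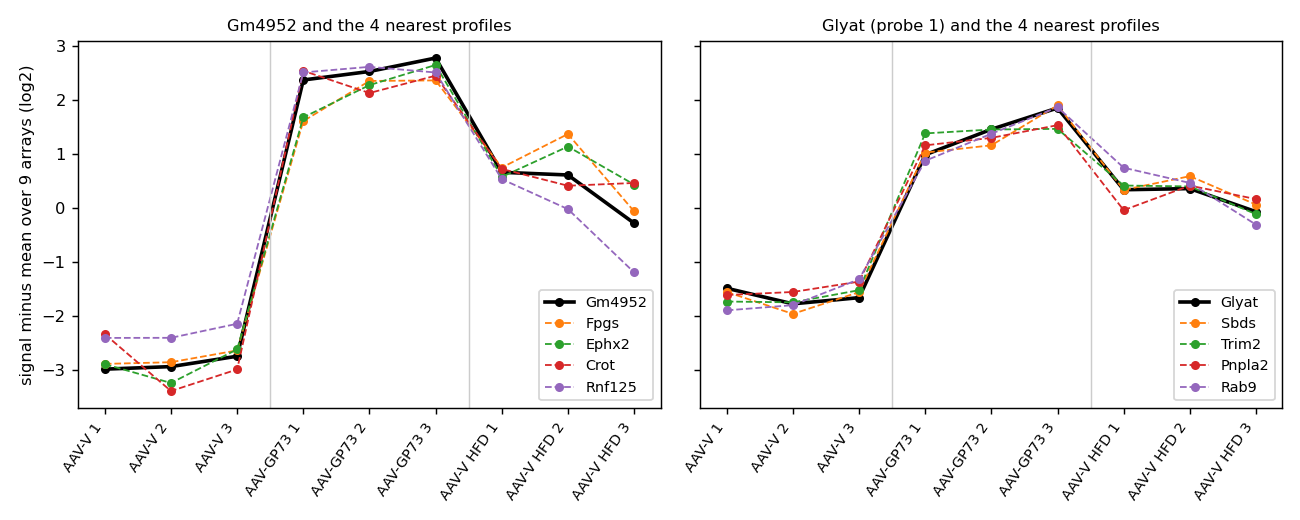
Log2 signal minus the mean over the 9 arrays for Gm4952 (left) and Glyat probe 1 (right), in black, with the 4 nearest genes in colour, one point per array. All lines have their lowest group mean on the AAV-V arrays and their highest on the AAV-GP73 arrays, and Gm4952 spans a wider range than Glyat.

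The genes beside the cluster on chromosome 19 were mostly unseen. Gm31208, A330040F15Rik and Fam111a on one side, Olfr1442 and Olfr1443 within the cluster, and Cntf and Lpxn on the other side were not well above background on any array, and their mean log2 signals were lower in AAV-GP73 than in AAV-V, as was the median of all unseen probes. Zfp91, a zinc finger protein 116 kb from the Glyat probe, was seen on 1 AAV-V array and on all AAV-GP73 and AAV-V HFD arrays, with means of 2.72, 4.30 and 4.21. Its level in AAV-GP73 and AAV-V HFD was thus nearly equal, while those of Gm4952 and Glyat were apart.

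Markers of other cells were measured because Keg1 and its relatives are known from kidney as well as liver. Of 6 kidney tubule markers, Lrp2, Umod, Kap and Slc5a2 were not well above background on any array. Slc22a6 was seen on all AAV-GP73 and AAV-V HFD arrays, where Slc34a1 was unseen. Both were seen on some AAV-V array, and 1 of them on every AAV-V array. The summed scaled signal of the 6 ran from 57.5 to 107 on AAV-V arrays. It ran from 27.3 to 38.2 on AAV-GP73 arrays and from 41.1 to 47.5 on AAV-V HFD arrays. These sums ran opposite to the members, as did the median of all probes never above background. All 4 cholangiocyte markers were unseen on the AAV-V arrays, with sums of 11.4 to 15.6, 6.89 to 12.5 and 6.76 to 15.5 in the 3 groups. Sums of the 4 endothelial markers overlapped between the groups (12.2 to 19.6, 13.5 to 17.9 and 7.84 to 15.1). None of these 4 was seen on every array of any group, and Lyve1 was unseen throughout. Sums of the 4 macrophage markers were higher where the members were, at 18.6 to 23.2 (AAV-V), 56.6 to 78.3 (AAV-GP73) and 48.5 to 109 (AAV-V HFD). Of these markers, Adgre1 was unseen on all AAV-V and AAV-GP73 arrays. Clec4f and Cd68 were also unseen on all AAV-V arrays, so the AAV-V sum includes unseen signals of 3 of the 4. The 4 stellate markers summed to 93.5 to 167, 186 to 243 and 106 to 154, and the 3 erythroid markers to 130 to 334, 1950 to 10100 and 461 to 551. The stellate marker Lrat was unseen on all arrays. Reln (stellate) and Hbb-b1 (erythroid) were unseen on all AAV-V and AAV-V HFD arrays. The macrophage, stellate and erythroid sums thus moved in the same direction as Gm4952 and Glyat in AAV-GP73. Which markers carried the sums was not determined, and the part of these markers in the family's values was not tested.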

How the data were processed

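Total RNA of 9 livers was labelled with Cy3 and hybridised to one-colour Agilent arrays, 1 array per sample, and samples were grouped by their labels. Deposited intensity values were scanner output, per the file headers of Feature Extraction 12.0.3.1 (the submitters' processing notes name version 10.7), in which background and spatial trend had been removed within each array. Flags for spots well above background came from the same files. A deposited table of log2 values by the authors, whose scaling and centring are not stated, had column medians of 0.799 to 0.801 and served as an alternative.

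The log2 processed signal of the 59305 non-control spots was shifted to a common 75th percentile. Spots of a probe name were averaged, and a gene was taken by its brightest probe. The 5763 genes that every array of some group read well above background were fitted over the 3 groups with limma 3.58.1 (R 4.3.3, the data.table package, version 1.17.8). Calls needed a p under 0.05 after Benjamini-Hochberg adjustment and a change of 2-fold or more, and every adjusted p is limma's. Seen means well above background. Precision is limited by there being 3 arrays per group.

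The members, the lists and the tests were chosen with earlier results of these data known. Named were every member probe, up to 4 of the brightest tested genes of each list, the 5 nearest profiles (of which 1 is not reported here), the chromosomal neighbours and Golm1. Gldc, Acadsb, Shmt2 and genes named as not tested lie outside this rule and were named after their values were seen. Alternatives were other scalings, background correction, filters, tests, fits and the omission of each array. Scripts were tested on simulated data.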

Additional observations from a re-analysis of the deposited data

Results flagged for a closer look

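Gldc of the glycine cleavage system is singled out because its change over AAV-V differed between AAV-GP73 and AAV-V HFD by the direct contrast, with a fitted log2 difference of 2.24 (SE 0.43, limma adjusted p = 0.0183 over 5763 genes, AAV-GP73 higher on 3 of 3 arrays). Gldc was seen on all AAV-GP73 arrays, 1 AAV-V HFD array and no AAV-V array, so it entered the test only through the group where it was high, and the p is no independent support. The limma adjusted p ranged from 0.00649 to 0.483 over the other scalings, normexp, no filter on dim probes, the replicate block and the omission of each array. It was 0.0601 with the percentile of detected spots, 0.154 with quantile normalization, 0.165 with the authors' log2 values, 0.483 with normexp and 0.13 with no filter on dim probes.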

How the results depend on the processing

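The counts of genes around glycine conjugation called higher than in AAV-V (20 in AAV-GP73, 16 in AAV-V HFD) became 13 and 6 with the 75th percentile of detected spots, 5 and 3 with normexp, and 3 and 2 among genes seen on all 9 arrays, where fewer genes were tested. The other 19 alternatives kept each count within 1.5 times. With no filter on dim probes 1 gene, Acsm2, was called lower in each comparison, and in no other setting was any. The call between AAV-GP73 and AAV-V HFD (1, Gldc) fell to 0 with the detected-spot percentile, quantile normalization, the authors' log2 values, normexp, no filter, the filter on all 9 arrays and the methods' t-test after adjustment, and became 2 (Baat and Gldc) with the unadjusted methods' t-test. Why these calls were lost was not tested, apart from the filter on all 9 arrays, which removed Gldc from the test.

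Leaving out each array in turn gave 19 to 23 and 15 to 18 genes higher, 0 to 0 lower in both, and 0 to 2 called between AAV-GP73 and AAV-V HFD, with 0 without AAV-GP73 replicate 2, AAV-GP73 replicate 3 or AAV-V HFD replicate 1 and 2 (Gldc and Gnmt) without AAV-V HFD replicate 3. With the replicate number as a block the counts were 20 and 16 higher, 0 lower and 1 between AAV-GP73 and AAV-V HFD, and the block changed no count. Equal numbers did not mark pairs, as the correlations of deviations from the group means lay between -0.109 and 0.166.

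On the log2 scale, the Gm4952 bound in AAV-GP73 (3.23) was 2.14 with the detected-spot percentile, 2.31 with quantile normalization, 4.01 with spike-in scaling, 2.53 with the authors' values and 1.38 with normexp, and 3.12 to 3.33 on leaving out 1 array. Its bound in AAV-V HFD (1.00) was 0.26 with quantile normalization, 1.47 with spike-in scaling, 0.32 with the authors' values and 0.47 with normexp, and 0.83 to 1.31 on leaving out 1 array. Its difference between AAV-GP73 and AAV-V HFD (2.23) was 0.91 with normexp and 1.93 to 2.40 on leaving out 1 array. The Glyat bound in AAV-GP73 (1.38) was 0.28, 0.50, 2.16, 0.59 and 0.50 with the same 5 settings in that order, and 1.17 to 1.60 on leaving out 1 array. Its bound in AAV-V HFD (0.15) was 0.62 with spike-in scaling and 0.08 to 0.29 on leaving out 1 array, the highest without AAV-V HFD replicate 3. Its difference between AAV-GP73 and AAV-V HFD (1.23) was 0.28 with normexp and 1.01 to 1.45 on leaving out 1 array. The Keg1 difference (-0.36) stayed between -0.55 and -0.04. Keg1 over AAV-V gave no bound in any setting run, and Glyat probes 2 and 3, taken by themselves in the main scaling alone, gave none. Signal near background limits Keg1, 2 of 3 Glyat probes and all AAV-V levels of the family.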
